A study of Mus musculus with 6 samples.

Results

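Onecut1, Onecut2, Onecut3, Lhx1 and Prox1 are homeodomain transcription factor genes of the early retina, and all 5 of these named genes, of 27998 in the deposited matrix, were found and followed across the authors' 5 cell types and 3 genotype groups. Retinal cells of mice at embryonic day 14 had been profiled by droplet single-cell RNA-seq that counts the 3' ends of polyadenylated RNA as unique molecular identifiers (UMIs), and 67050 of 93128 cells belonged to the 6 libraries used here. The groups, of 2 libraries each, were Bax het Atoh7 null (1 working copy of Bax and no Atoh7), Bax null (no Bax, with Atoh7 of wild type) and, lacking both genes, Bax null Atoh7 null. Both genes intact were found in no group, so every comparison is between mutants, and the labels do not say whether a library came from 1 embryo or several, so p-values measure the spread between libraries only. Atoh7 is the proneural factor of ganglion cell precursors, and Bax is an effector of programmed cell death. The alleles and strain were not given in the sources used here.

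Horizontal cells are inhibitory interneurons of the outer retina, born early together with ganglion cells, cones and the first amacrine cells. In textbook accounts, Foxn4 and Ptf1a act in the shared horizontal and amacrine precursors, Prox1 promotes horizontal fate, the Onecut factors act in precursors and in several early neurons, and Lhx1 directs the placement of horizontal cells. Prox1 is also known from dividing progenitors, and Onecut1 and Onecut2 from developing ganglion cells and cone precursors.

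The sequence just upstream of the start site is shown for the 3 genes that have an entry in the RefSeq promoter table (assembly GRCm38.p6), since the genotype groups differ in a factor, Atoh7, whose protein class binds the E-box CANNTG. Onecut2 and Onecut3 are named only. Each line runs 5' to 3' on the strand of the gene, stops at the last base before the start site, and carries its E-boxes in capitals. The windows are chr9:74861671-74861920 (plus strand) for Onecut1, chr11:84525535-84525784 (minus strand) for Lhx1 and chr1:190170828-190171077 (minus strand) for Prox1, whose first listed start site was used.
Onecut1: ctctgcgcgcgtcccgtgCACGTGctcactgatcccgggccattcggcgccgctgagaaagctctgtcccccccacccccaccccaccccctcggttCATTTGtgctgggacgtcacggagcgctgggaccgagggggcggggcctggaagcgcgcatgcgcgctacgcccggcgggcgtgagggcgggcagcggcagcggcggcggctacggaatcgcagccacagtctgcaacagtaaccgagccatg
Lhx1: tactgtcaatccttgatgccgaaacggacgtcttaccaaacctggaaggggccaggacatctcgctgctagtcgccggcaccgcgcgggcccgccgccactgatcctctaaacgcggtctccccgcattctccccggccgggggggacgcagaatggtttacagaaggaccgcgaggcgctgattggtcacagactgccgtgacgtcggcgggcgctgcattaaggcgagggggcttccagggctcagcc
Prox1: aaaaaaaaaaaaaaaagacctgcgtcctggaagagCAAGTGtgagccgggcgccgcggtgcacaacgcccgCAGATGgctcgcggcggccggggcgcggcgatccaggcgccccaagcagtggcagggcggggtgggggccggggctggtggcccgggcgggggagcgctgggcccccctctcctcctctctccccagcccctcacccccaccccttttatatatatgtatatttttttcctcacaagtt
CANNTG reads the same on either strand. It matched 2 times in the Onecut1 window, beginning 232 and 153 bases before the start, 2 times in the Prox1 window, at 215 and 179 bases, and 0 times in the Lhx1 window. The window of the other listed Prox1 start site (chr1:190169516-190169765, minus strand) held 0 matches. Of the 32851 promoters in the table, 66.2% held at least 1 match in a window of the same 250 bases. The Prox1 match at 179 bases was also a match to CAGATG, an E-box of proneural type that 14.4% of promoters held on at least 1 strand. CAGCTG, the other specific E-box searched, was in none of these windows, and 13.0% of promoters held it. The Onecut-type motifs ATCAAT and ATCGAT, searched on both strands, were in none of the 3 windows, and 6.72% and 0.728% of promoters held them.

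The libraries held 22463515 to 66594431 UMIs. Atoh7 had 0 UMIs in each of the 4 Atoh7 null libraries, and 376 and 458 UMIs in the Bax null libraries. Bax stood at 144 and 108 CPM (UMI counts scaled to a common library total) in the Bax het Atoh7 null libraries, 17.1 and 15.0 in the Bax null libraries, and 47.7 and 11.0 in replicates 1 and 2 of Bax null Atoh7 null. Some Bax RNA thus remained under each null label, most in that replicate 1, and which part of Bax the alleles remove was not given. The Bax null libraries also stood apart technically. Their cells had median totals of 5660.5 and 6804 UMIs against 1634 to 2632 elsewhere, mitochondrial genes took 3.80% and 3.90% of UMIs against 1.06% to 1.15%, and mt-Atp6 stood at 8740 and 9020 CPM against 3.74 to 4.55. Batch and genotype therefore cannot be told apart wherever Bax null is one side of a comparison. Of 62339 barcode sequences, 4534 occurred in more than 1 library, 172 of them in 3 or more.

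Scaling matters for the same reason. With library totals alone, the median gene was higher by 0.57 to 0.64 (log2) in the Bax null Atoh7 null group than in the Bax null group within the 5 cell types, and higher by 0.47 to 0.54 in the Bax het Atoh7 null group than in the Bax null group. Between the 2 Atoh7 null groups the shift was 0.09 to 0.12. Genotype differences below are therefore given after trimmed-mean (TMM) scaling, relative to that shift, whereas levels across cell types are plain CPM (with the UMIs of the cell type in the library as the total). The 3' counts carry no length scale, so levels are compared between cell types and groups for 1 gene at a time.

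The authors' horizontal label covered 2662 cells, 285 to 595 a library, in 6 of their 142 clusters. It made up 4.83% ± 0.593 (SD, n = 2) of cells in the Bax het Atoh7 null group, 3.12% ± 0.0639 in the Bax null group and 3.93% ± 0.444 in the Bax null Atoh7 null group. Its markers were mixed. The 16 amacrine markers summed to 1333 to 1867 CPM in the label and the 10 horizontal markers, of which the 5 genes are members, to 1227 to 2153 CPM. Onecut2 alone stood at 1065 to 1919 CPM there, so the horizontal sum followed mainly this 1 gene. In ganglion cells the same 10 markers summed to 552 to 1471 CPM. The 10 genes with the highest fold over all other cells were taken per cluster. In each of the 6 clusters they held more markers of the amacrine than of the horizontal list, mainly Ptf1a, Prdm13 and Tfap2b. Cluster 76 did so by Tfap2a and Tfap2b against Lhx1, and cluster 139 by Ptf1a alone. Ptf1a also acts in horizontal precursors and AP-2 genes in horizontal cells, so this count does not place the clusters as amacrine. The endothelial list (3 markers, 1 of them at 0) summed to 237 to 348 CPM in the label against 0.355 to 6.79 in ganglion cells. Its marker Cldn5 was among the leading 10 genes of clusters 2, 45, 57 and 141, at 405, 168, 326 and 819 CPM. The sum thus followed mainly this 1 gene and does not show a rise of the list as a set. Chodl, P2rx1 and Krt73 were among the leading 10 genes of clusters 2, 45 and 139. The name horizontal is used below only as the authors' label.

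Onecut2 (ENSMUSG00000045991, GRCm38 chromosome 18, 64340020 to 64400987, plus strand), the Onecut gene with the most UMIs (46590), was present in all 4 neuronal labels. Its level was 1504 ± 360 CPM (mean ± SD, n = 6 libraries) in horizontal-labelled cells, 959 ± 381 in ganglion cells, 537 ± 101 in cones, 204 ± 69.2 in neurogenic cells and 20.3 ± 9.59 in progenitors. The ranges of horizontal-labelled (1065 to 1919 CPM) and ganglion cells (475 to 1335 CPM) overlapped between libraries, but within every library the horizontal-labelled level was the higher, by 1.39 to 2.24 times. Ganglion and cone ranges (407 to 695 CPM in cones) overlapped as well. Ganglion cells, being more numerous, held 46.4% of all Onecut2 UMIs (34.7% to 57.3% by library) and horizontal-labelled cells 21.6% (16.4% to 27.3%).

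**Figure D1:**
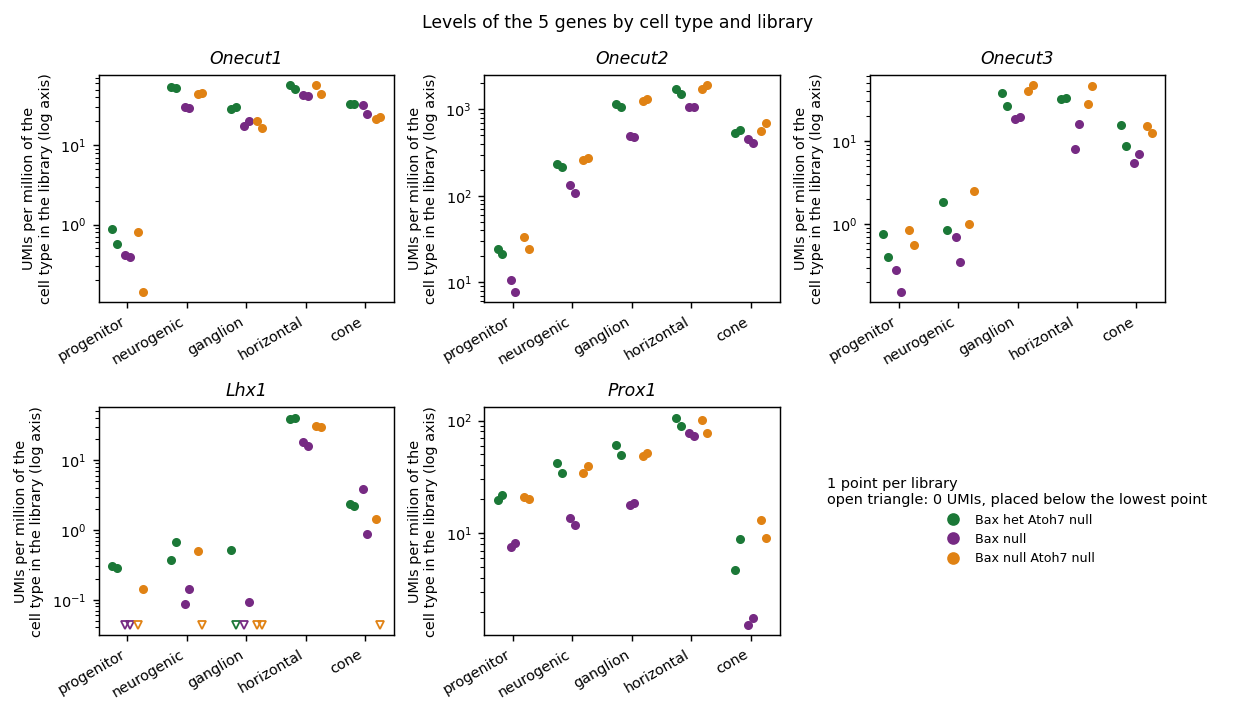
Levels of the 5 genes in CPM (log axis) by the authors' cell type, 1 point per library, coloured by genotype group, with open triangles for libraries with 0 UMIs. Lhx1 stands out in the horizontal label in all 6 libraries, while Onecut1, Onecut2 and Prox1 are spread over several labels.

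Onecut1 (ENSMUSG00000043013, chromosome 9, 74861921 to 74891781, plus strand), also known as HNF6, had overlapping levels in neurogenic and horizontal-labelled cells. The levels were 49.1 ± 6.92 CPM (n = 6) in horizontal-labelled cells and 42.6 ± 10.8 in neurogenic cells, with overlapping ranges of 41.6 to 57.6 and 29.1 to 54.9 CPM. Relative to ganglion cells of the same library, the horizontal-labelled level exceeded the neurogenic one in both Bax null libraries (2.45 against 1.72, 2.03 against 1.42). It also did so in Bax null Atoh7 null replicate 1 (2.89 against 2.20). In the remaining libraries the values were close (2.01 against 1.95, 1.68 against 1.73, 2.75 against 2.79). Cones followed with 27.7 ± 5.40 and ganglion cells with 22.1 ± 5.73 CPM, again overlapping, and progenitors were at 0.530 ± 0.273 CPM. Because neurogenic cells are many, they held 59.1% of the 3077 Onecut1 UMIs, against 20.6% in ganglion cells and 11.0% in the horizontal label. Onecut1 shares its strand and most of its span with the annotated transcript Gm20649, so that its counts can be split between the pair. Gm20649 stood at 2.85 to 4.81 CPM over whole libraries.

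Onecut3 (ENSMUSG00000045518, chromosome 10, 80494835 to 80517276, plus strand) was mainly a ganglion transcript by pooled count. Ganglion cells held 67.4% of its 1124 UMIs, at 31.6 ± 12.0 CPM (n = 6), and horizontal-labelled cells 15.7%, at 27.2 ± 13.5 CPM. The ganglion share was 83.8% and 83.1% in the Bax null libraries and 48.3% to 61.4% in the Atoh7 null ones. The horizontal-labelled share was 4.82% and 9.45% against 16.0% to 30.3%. The ganglion range of 18.2 to 47.5 CPM and the horizontal-labelled range of 7.95 to 46.0 CPM overlapped, and within libraries the ratio of the horizontal-labelled to the ganglion level ran from 0.436 to 1.24. Cones stood at 10.7 ± 4.32 CPM, and neurogenic cells (1.21 ± 0.805) and progenitors (0.503 ± 0.272) carried little.

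Lhx1 (ENSMUSG00000018698, chromosome 11, 84518284 to 84525535, minus strand), a LIM-homeodomain gene, was the gene most restricted to the label. Horizontal-labelled cells held 197 of its 238 UMIs, or 82.8%. In those cells its level was 39.4 and 40.8 CPM in the Bax het Atoh7 null libraries, 18.1 and 16.1 in the Bax null group, and 30.8 and 30.2 in the Bax null Atoh7 null group. The remaining UMIs were 14 in cones, 13 in progenitors, 12 in neurogenic cells and 2 in ganglion cells, and ganglion cells of 4 libraries had none. With each cell thinned to 1000 UMIs, Lhx1 was seen in 1.41% to 3.87% of horizontal-labelled cells and in 0% to 0.15% of ganglion cells. Without thinning the shares were 3.59% to 7.31% and 0% to 0.15%, at median depths of 1422 to 4339 UMIs in horizontal-labelled and 1833.5 to 6683 in ganglion cells. Few UMIs lie behind each Lhx1 value, 24 to 53 a library in the label.

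Prox1 (ENSMUSG00000010175, chromosome 1, 190118035 to 190170714, minus strand), a prospero-type homeodomain factor, was highest in the horizontal label and also present in dividing cells. Its level was 87.5 ± 13.7 CPM (n = 6) in horizontal-labelled cells, 41.2 ± 18.3 in ganglion cells, 29.3 ± 13.3 in neurogenic cells, 16.3 ± 6.60 in progenitors and 6.47 ± 4.56 in cones. The horizontal-labelled range (73.1 to 106 CPM) lay above the ganglion range (17.9 to 61.1 CPM), whereas ganglion, neurogenic and progenitor ranges overlapped from neighbour to neighbour. Progenitors held 44.3% of the 4786 Prox1 UMIs, neurogenic cells 23.6%, ganglion cells 18.5% and the horizontal label 12.6%. Prox1os, an antisense transcript that overlaps Prox1, had 259 to 344 UMIs a library. How the counting used strand was not given in the sources used here, so reads of the pair may be mixed.

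**Figure D2:**
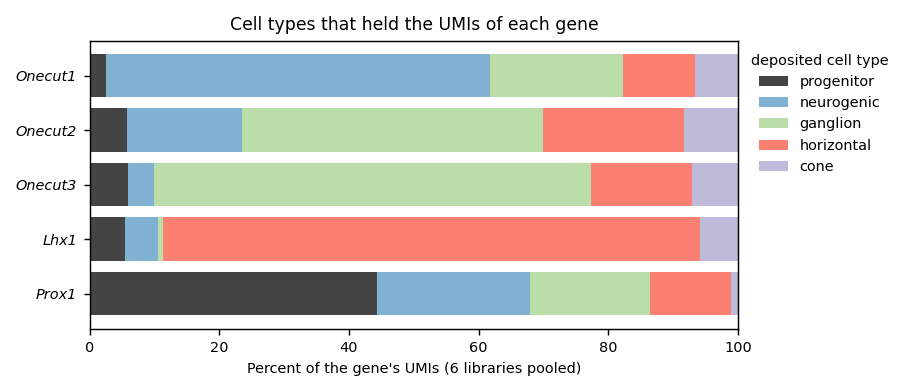
Percent of each gene's UMIs, pooled over 6 libraries, that fell in each of the authors' 5 cell types. Lhx1 lies mostly in the horizontal label (82.8%), Onecut3 in ganglion cells (67.4%), Onecut1 in neurogenic cells (59.1%), and Prox1 has its largest share in progenitors (44.3%). The pooled shares hide differences between libraries, such as 48.3% to 83.8% for Onecut3 in ganglion cells.

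Progenitors separated Prox1 from the other genes when set against ganglion cells of the same library. The progenitor level was 31.9% to 44.0% of the ganglion level for Prox1, but 1.63% to 2.71% for Onecut2, 0.875% to 4.03% for Onecut1 and 0.796% to 2.10% for Onecut3. Of 16 ganglion markers measured the same way, 15 had a median under 5%, with a median of 1.16% over the list, the exception being Rbpms at 58.1%. The Onecut values in progenitors thus lay under the same 5% as most ganglion markers there, and Prox1 lay above it. Whether the Onecut UMIs in progenitors come from those cells or from free RNA was not tested. The 4 blood markers summed in progenitors to 467 and 398 CPM in the Bax null libraries and 8.97 to 197 CPM in the others. In ganglion cells they summed to 489 and 426 CPM against 4.39 to 197 CPM. The thinned shares of progenitors with a UMI were 0.759% to 2.45% for Prox1 and 0.506% to 3.29% for Onecut2.

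Within the horizontal label, cluster 76 (419 cells) had the highest mean level of each of the 5 genes and held most UMIs of Lhx1 and Onecut3. Of the label's UMIs, this cluster held 78.4% of those for Onecut3, 70.6% for Lhx1 (139 of 197), 35.9% for Prox1, 32.7% for Onecut1 and 23.1% for Onecut2. Larger shares of the Onecut2 UMIs lay in cluster 2 (32.1%) and cluster 57 (23.9%). Levels there were 144 ± 29.0 CPM for Lhx1 (mean ± SD, n = 6 libraries), 150 ± 69.0 for Onecut3, 231 ± 34.5 for Prox1, 118 ± 32.4 for Onecut1 and 2515 ± 551 for Onecut2. Among all 142 clusters, cluster 76 ranked first for Lhx1, Onecut2, Onecut3 and Prox1 and second for Onecut1, behind neurogenic cluster 87 (126 CPM pooled). The authors formed clusters from these same counts, and all 5 genes were marked as used for ordering cells, so these levels describe the clusters and were not tested.

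Cluster 57 (479 cells) came next for Lhx1 and Prox1. Its levels were 33.5 ± 14.1 CPM for Lhx1, 152 ± 37.1 for Prox1, 91.9 ± 20.8 for Onecut1 and 2332 ± 565 for Onecut2, the last within the spread of cluster 76. Cluster 2, the largest with 865 cells, held 1472 ± 196 CPM of Onecut2 but 5.60 ± 2.89 of Lhx1 and 59.3 ± 10.9 of Prox1. In clusters 45 and 139, Onecut2 was at 622 ± 63.2 and 321 ± 88.8 CPM and Lhx1 rested on 6 and 2 UMIs. Cluster 141 (165 cells) resembled cluster 57 in Onecut2 (2281 ± 459 CPM) and Prox1 (143 ± 70.5 CPM), with 4 Lhx1 UMIs. It had only 10 and 4 cells in the Bax null libraries. Its Prox1 level in Bax null replicate 2, 253 CPM, rested on 5 UMIs, and the pooled level was 123 CPM. Onecut2 therefore spanned all 6 clusters, and Lhx1 and Onecut3 mainly 1.

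**Figure D3:**
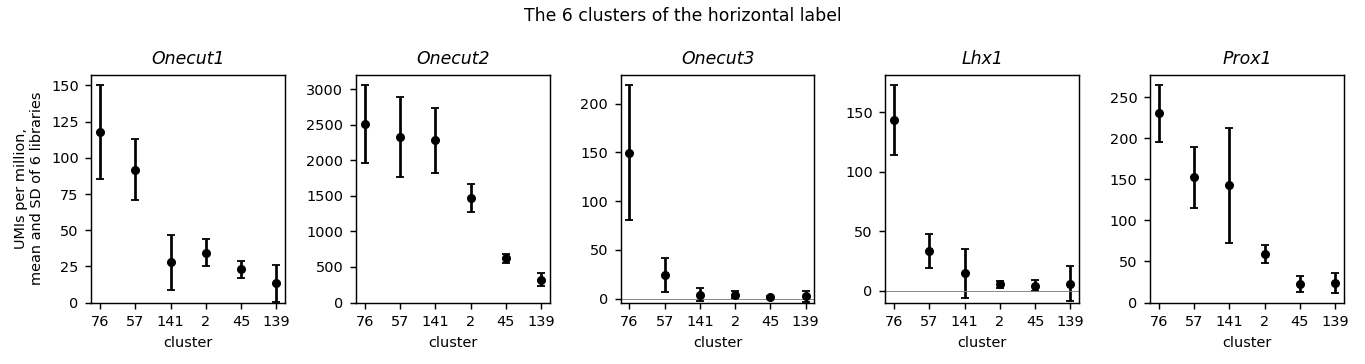
Levels in CPM (linear axis) in the 6 clusters of the horizontal label, as mean and SD over 6 libraries. Lhx1 and Onecut3 peak in cluster 76 at 144 and 150 CPM, whereas Onecut2 is about as high in clusters 57 and 141 as in cluster 76. Cluster 141 had only 10 and 4 cells in the Bax null libraries.

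The AP-2 genes, transcription factors of amacrine and horizontal cells, differed in their clusters. Tfap2a was at 195 ± 67.8 CPM in cluster 76, 82.7 ± 12.9 in cluster 57 and 0.841 ± 1.34 in cluster 2. Tfap2b ran from 1707 ± 404 CPM in cluster 76 to 42.7 ± 22.8 in cluster 139. Tfap2c was low in cluster 76, at 5.97 ± 5.27 CPM on 6 UMIs, against 33.7 ± 14.7 in cluster 2, 40.7 ± 32.1 in cluster 57 and 36.9 ± 42.8 in cluster 141. Ptf1a, the precursor factor, was spread differently, with 317 ± 154 CPM in cluster 76 and 519 ± 119 in cluster 57. Among horizontal-labelled cells with an Lhx1 UMI, 31.3% also had a Tfap2a UMI, against 6.88% of those without, and 44.2% had a Ptf1a UMI, against 55.0%. The median depths of these 2 sets of cells, 2181 and 1962 UMIs, differed little. For Onecut3 the same pairs of shares were 30.9% and 6.85% for Tfap2a, and 40.8% and 55.2% for Ptf1a.

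Cells with UMIs of several of the genes were few at equal depth. Of 2589 horizontal-labelled cells thinned to 1000 UMIs, 29.4% had none of the 5 genes, 55.9% had 1, 12.6% had 2, 1.85% had 3 and 0.348% had 4. In ganglion cells 4.96% had 2, and in progenitors 0.0659%. Lhx1 and Prox1 were seen together in 20 of the thinned horizontal-labelled cells, where the product of their shares gives 6.89 cells. Inside cluster 76 alone, with 413 thinned cells, 17 cells had both, where the product gives 11.0, so that part of the joint detection over the label came from cells of the same cluster. Onecut3 and Lhx1 were seen together in 12 cells of the label, all of them in cluster 76, where the product gives 7.05.

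Genotype groups were compared on UMIs summed per library and cell type with edgeR's quasi-likelihood test, with Benjamini-Hochberg adjustment over all genes tested and a call at an adjusted p under 0.05. Of the 25 gene and cell type pairs, 21 had enough counts to be tested, Lhx1 only in the horizontal label. Setting the Bax null Atoh7 null group against the Bax het Atoh7 null group asks what the remaining Bax copy changes when Atoh7 is absent. The Bax null Atoh7 null group against the Bax null group asks about Atoh7 with Bax absent. With the Bax het Atoh7 null group in its place, Atoh7 is lost and 1 Bax copy is restored together. A difference in that comparison therefore cannot be assigned to Atoh7 alone. Both comparisons with the Bax null group share the Bax null libraries.

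Between the 2 Atoh7 null groups, 0 of 21 pairs were called by edgeR, and 0 of the 13 with an adjusted p by DESeq2. The background was 1.46% to 2.34% of genes called per cell type (2.01% in progenitors, 1.77% in neurogenic cells, 2.34% in ganglion cells, 1.61% in the horizontal label and 1.46% in cones). At an unadjusted p under 0.05 there were 3 pairs, all Onecut1 and all lower in the Bax null Atoh7 null group, in ganglion cells, neurogenic cells and cones. In ganglion cells TMM-scaled Onecut1 was 17.3 and 13.5 CPM against 25.9 and 27.9 CPM, a log2 difference of -0.81 (SE 0.20, edgeR adjusted p = 0.0581). In neurogenic cells the difference was -0.34 (SE 0.10, edgeR adjusted p = 0.170) and in cones -0.68 (SE 0.25, edgeR adjusted p = 0.335). None of the 3 pairs had overlapping libraries, but they were picked by that p from the same libraries, so this adds no support. The shares of all genes without overlap, or under an unadjusted p of 0.05, were not counted here or below. The ganglion difference passed the threshold without Bax null Atoh7 null replicate 1, the library with more Bax RNA, at -0.998 (edgeR adjusted p = 0.0268). It also did so with the highest-UMI cells left out (-0.92, edgeR adjusted p = 0.0298) and with the replicate number as a block (-0.80, edgeR adjusted p = 0.0430). Lhx1 in the horizontal label was 27.7 and 25.9 CPM against 36.4 and 38.5, a difference of -0.48 that was not called (SE 0.24, edgeR adjusted p = 0.525).

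Against Bax null, Prox1 was higher in both Atoh7 null groups in progenitors, neurogenic cells and ganglion cells, but not in the horizontal label. In ganglion cells TMM-scaled Prox1 was 22.9 and 24.3 CPM in the Bax null group, 42.1 and 42.8 in the Bax null Atoh7 null group, and 56.1 and 45.7 in the Bax het Atoh7 null group, with no overlap. The log2 differences were 0.85 (SE 0.13, edgeR adjusted p = 0.000167) and 1.09 (SE 0.13, edgeR adjusted p = 2.51e-05). In neurogenic cells the Bax null libraries held 17.6 and 15.2 CPM and the others 30.3 to 38.2 CPM, with differences of 0.95 and 1.09. In progenitors they held 9.74 and 10.8 CPM against 16.1 to 19.7 CPM, with differences of 0.76 and 0.86. In horizontal-labelled cells the Bax null libraries stood at 98.4 and 93.0 CPM and the others at 66.3 to 98.1 CPM. Both Bax null Atoh7 null libraries lay below the Bax null ones, whereas the Bax het Atoh7 null libraries overlapped them. The differences of -0.27 (SE 0.17, edgeR adjusted p = 0.264) and -0.08 (SE 0.17, edgeR adjusted p = 0.768) were not called. Under library totals alone these last differences were 0.26 and 0.37. In cones, where Prox1 rested on 2 to 18 UMIs a library, the difference between the Bax null Atoh7 null group and the Bax null group was 2.19 (SE 0.67, edgeR adjusted p = 0.0181), and it was not called without Bax null replicate 1 (2.10), Bax null replicate 2 (2.28) or Bax null Atoh7 null replicate 1 (1.80).

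Onecut2 followed the same pattern. In ganglion cells TMM-scaled Onecut2 was 622 and 621 CPM in the Bax null group, 1073 and 1111 in the Bax null Atoh7 null group, and 1048 and 998 in the Bax het Atoh7 null group. The log2 differences from the Bax null group were 0.81 (SE 0.11, edgeR adjusted p = 4.79e-05) and 0.72 (SE 0.11, edgeR adjusted p = 0.000152). Neurogenic cells stood at 171 and 139 CPM in the Bax null group against 198 to 232 CPM, with called differences of 0.58 and 0.40. Progenitors stood at 13.7 and 10.2 CPM against 19.3 to 29.5 CPM, with called differences of 1.06 and 0.78, at levels whose source, as said above, was not tested. For Bax het Atoh7 null the neurogenic and progenitor calls were lost without Bax het Atoh7 null replicate 1 (0.36 and 0.70), and likewise without Bax null replicate 2 (0.26 and 0.58). In the horizontal label Onecut2 was 1358 and 1354 CPM in the Bax null group, 1543 and 1643 in the Bax null Atoh7 null group, and 1607 and 1424 in the Bax het Atoh7 null group, and the differences of 0.23 (SE 0.14) and 0.16 (SE 0.14) were not called (edgeR adjusted p = 0.227 and 0.420). The first was called without Bax null Atoh7 null replicate 1 (0.27, edgeR adjusted p = 0.0381) and both under library totals alone (0.77 and 0.60). In cones the differences were -0.02 and -0.10, not called, and 0.54 and 0.36 under library totals alone.

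**Figure D4:**
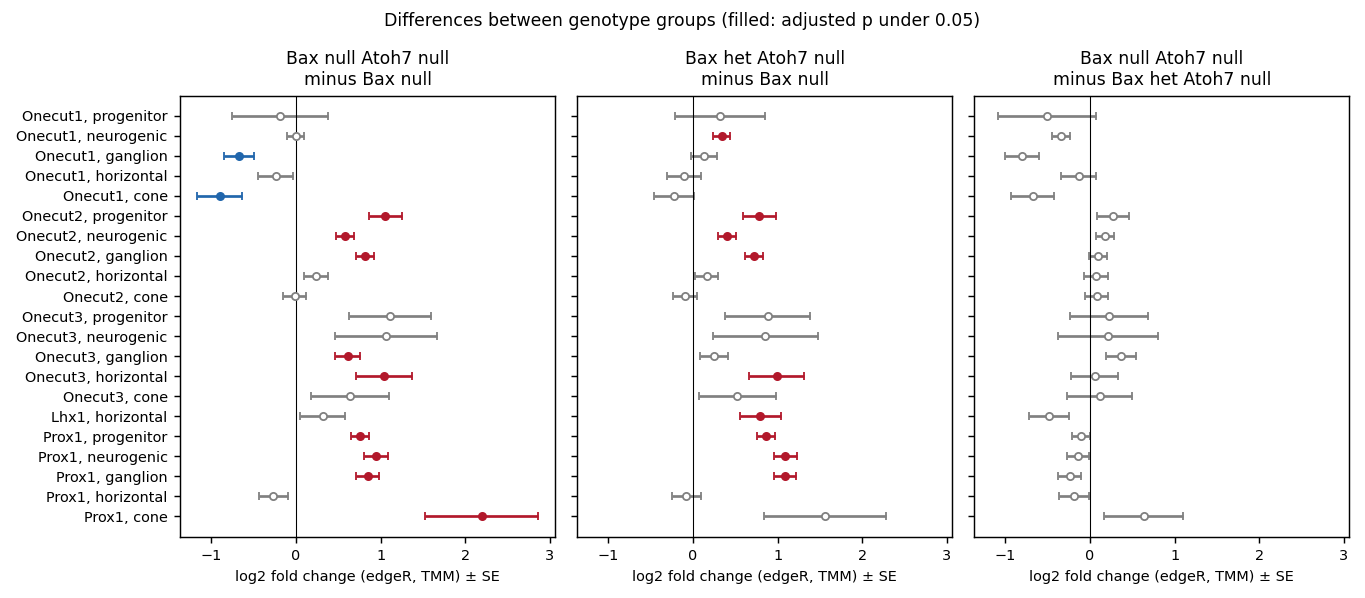
Log2 differences (edgeR, TMM-scaled) with their SE for the 21 tested pairs of gene and cell type in the 3 comparisons, filled where the adjusted p was under 0.05. Prox1 and Onecut2 sit above 0 in progenitors, neurogenic cells and ganglion cells in both comparisons with the Bax null group, neither is filled in the horizontal label, and no pair is filled between the 2 Atoh7 null groups.

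Onecut1 moved otherwise. In Bax null Atoh7 null it was lower than in the Bax null group in ganglion cells (17.3 and 13.5 against 22.6 and 26.7 CPM, TMM-scaled), with a log2 difference of -0.68 (SE 0.17, edgeR adjusted p = 0.00553). The call was lost without Bax null Atoh7 null replicate 2 (-0.52) and under library totals alone (-0.07). In cones it was also lower, at 19.4 and 18.9 against 40.2 and 31.4 CPM, with a difference of -0.90 (SE 0.26, edgeR adjusted p = 0.0140) that was lost without Bax null replicate 1 (-0.70), without Bax null Atoh7 null replicate 1 (-0.92), under DESeq2 (-0.93) and under library totals alone (-0.36). In neurogenic cells, which held most of its UMIs, Bax null Atoh7 null and the Bax null group did not differ detectably (38.8 and 37.7 against 39.0 and 37.8 CPM, log2 difference -0.0037, SE 0.10). Bax het Atoh7 null, at 49.5 and 47.5 CPM, was higher than Bax null there by 0.34 (SE 0.10, edgeR adjusted p = 0.0139), a call lost without Bax het Atoh7 null replicate 1 (0.31) or either Bax null library (0.36 and 0.31), under DESeq2 (0.34) and with the highest-UMI cells left out (0.20).

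Onecut3 and Lhx1 gave calls that rested on few UMIs. Onecut3 in ganglion cells was 34.9 and 39.5 CPM in the Bax null Atoh7 null group against 23.4 and 25.3 in the Bax null group, higher by 0.61 (SE 0.15, edgeR adjusted p = 0.00428). With the library sums of the cell type thinned to the smallest library total (counts thinned), that difference was 0.44 and not called (edgeR adjusted p = 0.0763). In the horizontal label it was 10.0 and 20.5 CPM in the Bax null group, 25.0 and 39.3 in the Bax null Atoh7 null group, and 29.9 and 31.2 in the Bax het Atoh7 null group, on 11 to 43 UMIs a library. The differences of 1.04 (SE 0.33, edgeR adjusted p = 0.0217) and 0.99 (SE 0.32, edgeR adjusted p = 0.0254) rested on Bax null replicate 1, the lowest library, without which they were 0.63 and 0.57 and not called. They were 1.65 and 1.59 without Bax null replicate 2. The first was also not called without Bax null Atoh7 null replicate 2 (0.69), and the second without either Bax het Atoh7 null library (1.01 and 0.93). Both calls were also lost under DESeq2 (DESeq2 adjusted p = 0.139 and 0.181) and with counts thinned (edgeR adjusted p = 0.0596 and 0.0536), and the second with the highest-UMI cells left out (0.87). Lhx1 in the label was higher in the Bax het Atoh7 null group (36.4 and 38.5 CPM) than in the Bax null group (22.8 and 20.5 CPM) by 0.80 (SE 0.24, edgeR adjusted p = 0.0172). That call was lost without Bax het Atoh7 null replicate 2 (0.73), Bax null replicate 1 (0.87) or Bax null replicate 2 (0.71), under DESeq2 (0.77, DESeq2 adjusted p = 0.235) and with counts thinned (0.80, edgeR adjusted p = 0.0555). Bax null Atoh7 null, at 27.7 and 25.9 CPM, did not differ from the Bax null group at the threshold (0.31, SE 0.27, edgeR adjusted p = 0.416).

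Counted over cell types, 11 of the 21 pairs were called between the Bax null Atoh7 null group and the Bax null group, and 9 of 21 with the Bax het Atoh7 null group in its place. The called pairs were higher than in the Bax null group, except Onecut1 in ganglion cells and cones of the first comparison, which were lower. In the first comparison 2 of 4 pairs were called in progenitors, where 53.9% of all genes were, 2 of 4 in neurogenic cells (47.3% of genes), 4 of 4 in ganglion cells (52.7%), 1 of 5 in the horizontal label (29.2%) and 2 of 4 in cones (28.1%). In the second the counts were 2 of 4 (53.1% of genes), 3 of 4 (47.1%), 2 of 4 (50%), 2 of 5 (30.2%) and 0 of 4 (27.5%). The members were thus called about as often as genes at large. The count of 9 fell to 5 without Bax het Atoh7 null replicate 1, and to 5 also without Bax null replicate 2.

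Markers of other cell types moved with the groups inside the same labels, and their part in these results was not tested. In ganglion cells the 12 neurogenic markers, none of them at 0, summed to 2464 to 2800 CPM in the Atoh7 null libraries and 1156 and 1212 in the Bax null group. The 11 cone markers, 2 of them at 0, summed to 501 to 710 CPM against 96.8 and 121, and the 16 ganglion markers, none at 0, to 9678 to 12253 CPM against 15077 and 15681. Progenitor markers, none at 0, summed in ganglion cells to 1375 to 1917 CPM against 574 and 774. In progenitors the neurogenic markers summed to 785 to 821 CPM against 430 and 452. In neurogenic cells the ganglion markers, 1 of them at 0, summed to 805 to 979 CPM against 391 and 407 in the Bax null group, and the cone markers, 2 of them at 0, to 928 to 1206 CPM against 437 and 519. In the horizontal label the 12 progenitor markers, none at 0, summed to 2032 to 2901 CPM against 1730 and 1814, and the cone markers, 3 of them at 0, to 251 to 299 CPM against 358 and 414. These are plain CPM and so include the shift of the median gene.

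A difference between cell types of 1 library does not depend on effects that scale all its cells alike. Horizontal-labelled over ganglion levels of Prox1 were 4.37 and 3.93 in the Bax null libraries, 1.74 and 1.81 in the Bax het Atoh7 null group, and 2.09 and 1.51 in the Bax null Atoh7 null group. For Onecut2 the ratios were 2.22 and 2.24 in the Bax null group, 1.52 and 1.40 in the Bax het Atoh7 null group, and 1.39 and 1.44 in the Bax null Atoh7 null group. In both genes the Bax null libraries lay apart from the other 4. The Onecut1 ratios were highest in the Bax null Atoh7 null group, at 2.89 and 2.75, against 2.45 and 2.03 in the Bax null group and 2.01 and 1.68 in the Bax het Atoh7 null group. Those of Onecut3 overlapped between the Bax null Atoh7 null group and each other group.

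**Figure D5:**
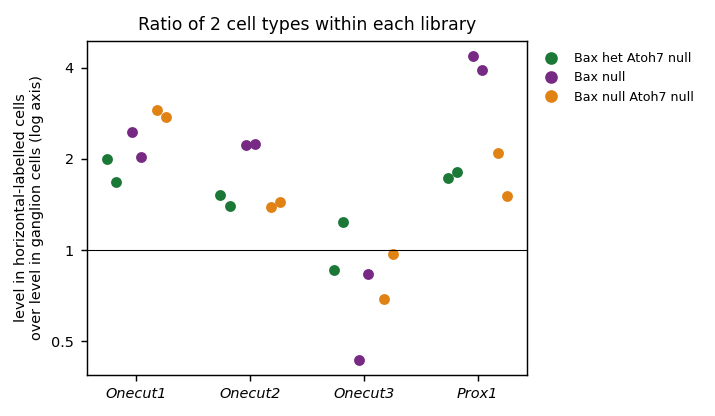
Ratio of the level in horizontal-labelled cells to that in ganglion cells of the same library (log axis), 1 point per library. The 2 Bax null libraries lie above the other 4 for Prox1 (4.37 and 3.93 against 1.51 to 2.09) and Onecut2 (2.22 and 2.24 against 1.39 to 1.52).

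The test of that difference, with the library as a block in one edgeR fit of 2 cell types, called both genes. The log2 effect of Bax null Atoh7 null against the Bax null group was smaller in horizontal-labelled than in ganglion cells by 1.10 for Prox1 (value -1.10, SE 0.19, edgeR adjusted p = 0.000169) and by 0.57 for Onecut2 (value -0.57, SE 0.05, edgeR adjusted p = 2.34e-09). For Bax het Atoh7 null against the Bax null group the values were -1.16 and -0.55. Of all genes, 6.78% and 7.03% differed in the same way in these fits. These 4 differences were called under every alternative run, which were other size factors and each library left out. For Onecut1 the differences were 0.44 (SE 0.25, edgeR adjusted p = 0.387) and -0.23 (SE 0.23, edgeR adjusted p = 0.676), and for Onecut3 0.45 (SE 0.33, edgeR adjusted p = 0.543) and 0.76 (SE 0.33, edgeR adjusted p = 0.196). None of these was called, and their errors were several times that of Onecut2.

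Set against progenitors, where the source of the Onecut2 UMIs was not tested, the effect in horizontal-labelled cells was again the smaller for Prox1 (-0.98 and -0.91) and Onecut2 (-0.79 and -0.59), where 3.09% and 2.65% of genes were called. Without Bax null Atoh7 null replicate 1 the first Onecut2 value was -0.40 and not called, without Bax null replicate 2 the second was -0.40 and not called, and without Bax het Atoh7 null replicate 2 the second Prox1 value was -0.71 and not called. The Onecut2 effect in cones was also smaller than in progenitors, by values of -1.01 and -0.81 (4.9% and 5.29% of genes called), the first at -0.56 but still called without Bax null Atoh7 null replicate 1. In neurogenic cells it was smaller than in progenitors, at -0.48 and -0.37 (7.46% and 8.35% of genes called). The first was not called without Bax null replicate 2 (-0.41) or Bax null Atoh7 null replicate 1 (-0.15), and the second was not called without any 1 of the Bax het Atoh7 null or Bax null libraries (-0.32 to -0.44). Ganglion and progenitor effects did not differ at the threshold for any of the 4 genes tested (15.7% and 15.2% of genes called). Between the 2 Atoh7 null groups, 0 of 23 such differences were called by edgeR and 2 reached an unadjusted p under 0.05 (Onecut1 between horizontal-labelled and ganglion cells, 0.67, and Onecut2 between horizontal-labelled cells and progenitors, -0.20). Without Bax null Atoh7 null replicate 2, 3 were called. Of all genes 0% were between horizontal-labelled and ganglion cells or between neurogenic cells and progenitors, 0.0536% between horizontal-labelled cells and progenitors, 0.102% between ganglion cells and progenitors and 0.0152% between cones and progenitors.

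Because the label held markers of both the horizontal and the amacrine list, the former mainly by Onecut2, its clusters were also compared by number. The 5 that had at least 20 cells in every library were used. In cluster 76, where the genes were highest, 0 of 5 were called by edgeR against the Bax null group in either comparison, where 15.3% and 12.6% of genes were. Prox1 and Onecut3 reached an unadjusted p under 0.05 for the Bax null Atoh7 null group, and 0 of 5 did for the Bax het Atoh7 null group. TMM-scaled Lhx1 there was 152 and 169 CPM in the Bax null group, 138 and 141 in the Bax null Atoh7 null group, and 178 and 216 in the Bax het Atoh7 null group, with differences from the Bax null group of -0.21 (SE 0.34) and 0.30 (SE 0.30). Prox1 was 323 and 338 CPM in the Bax null group, 255 and 181 in the Bax null Atoh7 null group, and 299 and 226 in the Bax het Atoh7 null group (-0.57, SE 0.28, and -0.35, SE 0.25). Onecut3 in the cluster was 80.8 and 143 CPM in the Bax null group against 146 to 271 elsewhere (0.80, SE 0.38, and 0.69, SE 0.36), and the first passed the threshold without Bax null Atoh7 null replicate 1 (1.2, edgeR adjusted p = 0.0409). Cluster 76 made up 12.0% and 13.7% of the label in the Bax null group, 18.6% and 18.7% in the Bax het Atoh7 null group, and 15.6% and 13.6% in the Bax null Atoh7 null group. Fewer cells of a type and less RNA per cell cannot be told apart in sums over the whole label.

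Of 13 gene and cluster pairs tested, 1 was called in each comparison with the Bax null group, which was Prox1 in cluster 2 both times. It was 96.3 and 91.8 CPM (TMM-scaled) in the Bax null group, 55.1 and 41.0 in the Bax null Atoh7 null group, and 52.6 and 52.7 in the Bax het Atoh7 null group. The log2 differences were -0.95 (SE 0.29, edgeR adjusted p = 0.0236) and -0.83 (SE 0.28, edgeR adjusted p = 0.0363), where 22.2% and 21.1% of genes were called. The first was not called without Bax null replicate 1 (-0.93), Bax null replicate 2 (-0.99) or Bax null Atoh7 null replicate 2 (-0.79), and the second was not called without any 1 of its own 4 libraries (-0.81 to -0.87). The counts of 1 and 1 became 3 and 2 without Bax null Atoh7 null replicate 1. They became 0 and 2 when the other library of that group was left out. Against the Bax null group, the shares of genes called were 20.7% and 17.5% in cluster 57, 23.1% and 19.9% in cluster 45, and 25.6% and 18.9% in cluster 139, with 0 members called. Between the Atoh7 null groups 0 of 13 pairs were called, where 1.03%, 0.787%, 1.75%, 1.47% and 1.71% of genes were in clusters 2, 76, 57, 45 and 139, and 0 of the 13 reached an unadjusted p under 0.05 (edgeR). Onecut2 in cluster 57 was higher in value in the Bax null Atoh7 null group than in the Bax null group by 0.41 (SE 0.17, edgeR adjusted p = 0.0890), which was not called.

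Summed over all cells of a library, Prox1 was higher than in the Bax null group by 0.64 in the Bax null Atoh7 null group and by 0.79 in the Bax het Atoh7 null group (56.4% and 55.8% of genes called). Lhx1 was higher by 0.71 (SE 0.26, edgeR adjusted p = 0.0415) and 1.63 (SE 0.23, edgeR adjusted p = 0.000575). The first Lhx1 value was not called without either Bax null library (0.82 and 0.61) or either Bax null Atoh7 null library (0.73 and 0.70), under DESeq2 (0.71), with the highest-UMI cells left out (0.56), with counts thinned (0.40) or with the replicate block (0.72). Onecut2 was higher by 0.34 in the Bax null Atoh7 null group, not called without Bax null replicate 1 (0.38), Bax null replicate 2 (0.31) or Bax null Atoh7 null replicate 2 (0.23). Onecut1 was lower there by a log2 value of -0.33, not called without Bax null replicate 2 (-0.26) or Bax null Atoh7 null replicate 2 (-0.30), and 0.27 under library totals alone. Between the 2 Atoh7 null groups (1.64% of genes called), Onecut1 differed by -0.48 (SE 0.10, edgeR adjusted p = 0.0559), which DESeq2 called (-0.48, DESeq2 adjusted p = 0.0288), and Lhx1 by -0.91 (SE 0.23, edgeR adjusted p = 0.107). These sums move with the mix of cell types, in which ganglion cells were 17.1% of cells in the Bax null group and 8.12% and 8.73% in the other groups.

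Other genes of the horizontal and amacrine network were taken from a list of 30. In horizontal-labelled cells 23 could be tested, with a median log2 difference between the Bax null Atoh7 null group and the Bax null group of -0.07 against 0.04 over all 8960 genes, 3 higher and 10 lower. Against Bax null, Bax het Atoh7 null had 6 higher and 8 lower, with a median of -0.04 against 0.03. In the pairs of values that follow, the first is for the Bax null Atoh7 null group and the second for the Bax het Atoh7 null group, each against the Bax null group, and the directions held under library totals alone.

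Among precursor factors, Neurog2 (0.73 and 0.69), a proneural factor, was higher in both, and Ptf1a (-1.09 and -0.49) was lower in both, the latter value moving to -0.04 (not called) under library totals alone. Rorb (-1.19), a nuclear receptor, and Neurod4 (-1.08) were called lower in the Bax null Atoh7 null group. Of the AP-2 genes, Tfap2c was higher in both (1.2 and 1.45), and Tfap2a (1.06) and Tfap2b (0.55) were called in the Bax het Atoh7 null group. The homeobox genes Dlx1 (-0.89 and -1.0), Dlx2 (-1.18 and -1.63) and Meis2 (-1.41 and -1.39) were lower in both, and Gad2, which makes the transmitter GABA, was higher (0.75 and 0.63). Among later genes Calb2, encoding the calcium-binding protein calretinin, was lower in both (-0.88 and -0.85). Cone and photoreceptor factors were lower in the label, Prdm1 by values of -2.95 and -3.08, Otx2 by -1.29 and -1.78 and Thrb by -1.29 and -2.45. Between the 2 Atoh7 null groups, Ptf1a (-0.60, edgeR adjusted p = 0.0162) and Rorb (-0.86, edgeR adjusted p = 0.00215) were lower in the Bax null Atoh7 null group, and 0 of 23 were higher. Neither held without every library: Rorb was not called without Bax het Atoh7 null replicate 2 (-0.80), and Ptf1a was not called without either Bax het Atoh7 null library (-0.62 and -0.58) or either Bax null library (-0.60 and -0.60).

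Several of the values against the Bax null group also rested on single libraries. Without Bax null replicate 1 the first values of Dlx1 (-0.62) and Dlx2 (-0.50) were not called, and the second of Dlx2 was -0.95 and still called. Without Bax null replicate 2 the first values of Gad2 (0.65), Tfap2c (1.03) and Thrb (-0.98) and the second of Ptf1a (-0.44) and Gad2 (0.53) were not called. Without Bax null Atoh7 null replicate 2 the first value of Thrb (-1.05) was not called. Without Bax het Atoh7 null replicate 1 the second values of Ptf1a (-0.47) and Gad2 (0.62) were not called, and without Bax het Atoh7 null replicate 2 those of Gad2 (0.62) and Neurog2 (0.47) were not called and that of Thrb was -3.92. Tfap2b was not called without any 1 of the 4 libraries compared (0.51 to 0.58). Under library totals alone the first values of Dlx1 (-0.36), Dlx2 (-0.65), Calb2 (-0.34) and Thrb (-0.76) were not called. Under DESeq2 both values of Gad2 (0.73 and 0.60) and Neurog2 (0.70 and 0.66), the first of Tfap2c (1.18) and Thrb (-1.33), and Tfap2b (0.52) were not called, and with the highest-UMI cells left out the second of Gad2 (0.46) was not. The values of Meis2, Prdm1, Otx2 and Calb2 were called whichever library was left out.

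In ganglion cells 20 of the 30 could be tested, 9 higher and 8 lower in each comparison with the Bax null group, with medians of 0.07 and 0.65 against 0.02 and 0.01 over 10586 genes. Neurog2 (3.04 and 3.08), Tfap2b (2.96 and 3.12), Neurod4 (0.73 and 1.48), Meis2 (0.65 and 0.85), Otx2 (1.31 and 0.69) and Thrb (0.67 and 0.79) were higher in both Atoh7 null groups. The ganglion factors Pou4f2 (-1.25 and -1.14) and Isl1 (-1.09 and -1.07) were lower, as were Calb2 (-4.35 and -4.75), Rxrg (-4.16 and -3.17), Gad2 (-1.08 and -1.24), Dlx1 (-1.04 and -1.02) and Dlx2 (-1.30 and -0.89). Foxn4 (1.34) and Prdm1 (1.05) were called higher in the Bax null Atoh7 null group, and Rorb (0.81) and Sept4 (0.60) in the Bax het Atoh7 null group. Between the Atoh7 null groups Rorb (-0.97) and Neurod4 (-0.75) were lower in the Bax null Atoh7 null group, the second not called when any 1 of the 6 libraries was left out (-0.71 to -0.79). Foxn4 was 0.81 without Bax null Atoh7 null replicate 1, and the second Pou4f2 value was -1.74 without Bax het Atoh7 null replicate 2. Calls were also lost for Prdm1 without either Bax null library (1.24 and 0.86) or Bax null Atoh7 null replicate 2 (0.73). Under library totals alone the second Dlx2 value was -0.40 and not called. With counts thinned, both Thrb values (0.25 and 0.33), the first of Neurod4 (0.53), Foxn4 (1.26) and Sept4 (0.71) were not called. DESeq2 did not call Prdm1 (1.04) or Sept4 (0.60). The second Otx2 value was 0.57 without Bax het Atoh7 null replicate 1 and, leaving out Bax null replicate 2, 0.52, not called, and Sept4 was not called without Bax het Atoh7 null replicate 1 (0.48), Bax het Atoh7 null replicate 2 (0.74) or Bax null replicate 1 (0.40).

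Of the 7198 genes with at least 20 CPM in a cell type, those most like each gene over the 30 library and cell type sums were found by Pearson's r of log2(CPM + 1). The 30 points share libraries and depths, so r is a description. For Lhx1 these were Krt73 (0.978), Pmfbp1 (0.951) and Tfap2a (0.950). For Prox1 they were its antisense neighbour Prox1os (0.964), Ralgps2 (0.929) and Sox11 (0.928), a SoxC factor of immature neurons. Onecut1 was closest to Fam110a (0.960) and Rassf4 (0.948). Onecut2 was closest to Celf3 (0.982), Amn1 (0.978) and Atat1 (0.976), and Onecut3 to Kif5a (0.979), Rab3a (0.974) and Nrep (0.971), of which Celf3, Kif5a and Rab3a are known from neurons at large. Among the 5 genes themselves, r was highest for Onecut2 with Onecut3 (0.888) and with Onecut1 (0.855), and lowest for Onecut1 with Prox1 (0.322).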

How the data were processed

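The authors' deposited matrix holds raw UMI counts per gene and cell, and a cell table gives each cell's library, cluster and cell type. The submitters' processing notes name Cell Ranger 1.2.1 and the mouse build mm10, and filters on cells, the use of strand in counting and doublet removal were not given in the sources used here. Per gene, counts summed in each cell equalled the deposited total in all 67050 cells used. Columns of 2 other libraries (26078 cells) were not used. Each library's group came from its labels.

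Counts were summed per library and cell type or cluster and tested with edgeR 4.0.16 (quasi-likelihood test, filterByExpr, TMM, 6 libraries in one fit, Benjamini-Hochberg over all genes tested, R 4.3.3), with DESeq2 1.42.0 as an alternative. Clusters with under 20 cells in a library were not tested. Levels were computed in Python 3.11.15, and shares of cells after thinning to 1000 UMIs left out 2410 shallower cells. No doublet caller was run, and leaving out the 8% of cells with the highest UMIs of each library and cell type (5379 cells) was an alternative. On simulated horizontal-labelled sums with 200 genes changed by a log2 value of 1, the group test recovered 80% (8732 genes tested), and for the difference between horizontal-labelled cells and progenitors 55.5% (13021 genes). The changed genes were drawn from those at 20 CPM or more. The simulated spread was 1 fixed dispersion, not estimated from these data, so these shares are not the power of the tests here.

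The members, gene lists and tests were chosen with earlier results of these data known. Named genes were the 5 members, the genes of the network list called in horizontal-labelled or ganglion cells, and the 3 genes most like each member. Some genes that this rule names are not reported here, and the counts over the list include them. The use of library totals alone was added after seeing the data. No label says that a replicate number marks a shared litter or batch, so the libraries were not treated as paired, and the block was an alternative.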

Additional observations from a re-analysis of the deposited data

Results flagged for a closer look

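The effect of genotype differed between cell types in 12 tests of the difference itself (edgeR, library as a block), all for Prox1 or Onecut2 and all in comparisons with Bax null, which share the Bax null libraries. Each value is the log2 effect in the first cell type minus that in the second, given first for Bax null Atoh7 null and then for Bax het Atoh7 null. For Prox1 it was -1.10 and -1.16 between horizontal-labelled and ganglion cells, and -0.98 and -0.91 between horizontal-labelled cells and progenitors. For Onecut2 it was -0.57 and -0.55 between horizontal-labelled and ganglion cells, and -0.79 and -0.59 between horizontal-labelled cells and progenitors. Between neurogenic cells and progenitors the Onecut2 values were -0.48 and -0.37, and between cones and progenitors -1.01 and -0.81. Both neurogenic values, both Onecut2 values between horizontal-labelled cells and progenitors and the second Prox1 value there lost the call with 1 library left out, as given above. The source of the Onecut2 UMIs in progenitors, which are 1 side of the Onecut2 differences from progenitors, was not tested.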

How the results depend on the processing

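Of 40 called results on the 5 genes, 20 stayed called in the same direction under every alternative run and 20 lost the call under at least 1. Of 29 picked from the results that were not called, 9 were called under at least 1. The other results that were not called are outside this tally. Of 65 called results on the network list in horizontal-labelled and ganglion cells, 42 stayed called, 23 lost the call under at least 1 and 0 changed direction. Library totals alone raised the pairs called between the Bax het Atoh7 null group and the Bax null group from 9 to 15 and the cluster pairs called between the Bax null Atoh7 null group and the Bax null group from 1 to 4. Under library totals alone the sign turned for Prox1 (0.26 and 0.37) and Onecut1 (0.29 and 0.34) in horizontal-labelled cells, and Onecut2 in cones (0.54 and 0.36), each against the Bax null group, first in the Bax null Atoh7 null group and then in the Bax het Atoh7 null group. It also turned for Onecut1 over all cells (0.27) and Lhx1 in cluster 76 (0.19) in the Bax null Atoh7 null group. With counts thinned, Onecut1 against the Bax null group in the Bax het Atoh7 null group was -0.082 in ganglion and 0.059 in horizontal-labelled cells. Onecut2 in cones, near 0, was 0.014 with no filter, 0.076 with the highest-UMI cells left out, 0.06 without Bax null replicate 1, reached 0.094 when Bax null Atoh7 null replicate 1 was left out, and -0.13 to 0.094 over all libraries left out in turn. Prox1 in horizontal-labelled cells of Bax het Atoh7 null was -0.19 to 0.015 with 1 library left out, the highest without Bax het Atoh7 null replicate 2. Between the Atoh7 null groups the count of 0 became 1 with the highest-UMI cells left out, and 0 to 1 with 1 library left out. DESeq2 gave 8 and 6 calls where edgeR gave 11 and 9, among 19 pairs with an adjusted p. Leaving out 1 library gave 5 to 9 calls between the Bax het Atoh7 null group and the Bax null group, 0 to 3 and 0 to 2 cluster pairs, and 0 to 3 differences between cell types for the Atoh7 null groups. The causes were not tested. By these lists, which file Ptf1a and the AP-2 genes as amacrine, leaving out clusters with more amacrine than horizontal markers left no cluster. That alternative was therefore not run.

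With the replicate number as a block (replicate block), the pairs called were 11, 9 and, between the Atoh7 null groups, 1 in place of 0, which was Onecut1 in ganglion cells (-0.80, edgeR adjusted p = 0.0430). Lhx1 over all cells lost its call (0.72, edgeR adjusted p = 0.0511). Deviations of same-numbered libraries correlated at 0.05 to 0.43 between the Atoh7 null groups and at -0.16 to 0.07 in the other pairs of groups. In the label Lhx1 rested on 24 to 53 UMIs a library and Onecut3 on 11 to 43, which bounds the precision of their values.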
